A study of Saccharomyces cerevisiae with 24 samples.

Results

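The 10 genes described here encode enzymes that make serine, interconvert serine and glycine, cleave glycine, and complete threonine synthesis in budding yeast, Saccharomyces cerevisiae. They were chosen by name and not by a cut on their values, though with earlier results of these data known. They are 10 of the 5912 genes quantified. The 10 are SER3, SER33, SER1 and SER2 of serine synthesis, the hydroxymethyltransferase genes SHM1 and SHM2, the glycine cleavage genes GCV1, GCV2 and GCV3, and THR4, the threonine synthase gene. Poly-A RNA was sequenced from haploid BY4741 MATa cells grown in the rich medium YPD. The wild type (wt) and 3 deletion strains, gcn2Δ::KAN, gcn4Δ::KAN and mbf1Δ::NAT, were left untreated (NT) or treated for 1 h with 0.1% methyl methanesulfonate (MMS), which alkylates DNA and RNA. The 8 groups of strain and treatment held 3 biological replicates each, or 24 libraries. Each deletion strain carries a drug marker that the wild type lacks, so the deletion and its marker cannot be told apart.

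Serine is made from the glycolytic intermediate 3-phosphoglycerate by a dehydrogenase, an aminotransferase and a phosphatase. Serine hydroxymethyltransferase moves a carbon from serine to tetrahydrofolate and leaves glycine, and the mitochondrial glycine cleavage complex takes a further carbon from glycine, so these enzymes feed the folate pool used for purines, thymidylate and methionine. Many amino acid genes in yeast are activated by the transcription factor Gcn4, whose translation rises when the kinase Gcn2 phosphorylates the initiation factor eIF2. Mbf1 is a conserved protein known as a coactivator of Gcn4 and as a factor that acts at collided ribosomes. The study asked how the response to MMS depends on the combination of treatment and genotype.

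The 10 genes did not move as a block. In wild type cells MMS raised SER3 3.17-fold, GCV1 2.65-fold, GCV2 2.62-fold and, slightly, SER33 (1.12-fold), lowered SHM2 5.05-fold, SHM1 3.85-fold, SER2 2.63-fold and THR4 1.72-fold, and left SER1 and GCV3 without a called change. In each deletion strain the response was lower than in wild type for SER3, SER1, GCV1, GCV2, GCV3 and THR4. SHM2 differed in opposite directions, with a deeper fall in gcn2Δ and mbf1Δ and a shallower one in gcn4Δ. Leaving out certain single libraries removed the calls for GCV3 in mbf1Δ and gcn4Δ and for THR4 and SHM2 in gcn4Δ. SER2 and SHM1 fell in all 4 strains, and their responses did not differ by the test. SHM1 in gcn2Δ just missed the threshold and was called, as a shallower fall, under some alternative settings. A gene is called changed at an adjusted p under 0.05 in edgeR's quasi-likelihood test after Benjamini-Hochberg adjustment over every gene tested, n = 3 libraries a group, and these p-values measure the spread between the labelled biological replicates. Where libraries are named as left out below, each was left out singly.

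Library totals ran from 13518147 to 28366559 estimated counts, and the members had at least 530.5 counts in every library, so all 10 passed the filter on low counts. Levels below are CPM, the counts relative to library size after TMM scaling, which compares a gene between libraries, unless TPM, which is per length, is named. The share of counts on the ribosomal RNA locus was 0.336% to 1.48% in the gcn4Δ libraries and 6.80% to 17.7% in all others, and its part in the gcn4Δ results was not tested beyond a fit without those genes. In their own strains the deleted genes were at 0.576 ± 0.0711 CPM (mean ± SD, n = 3) for GCN2, 28.0 ± 2.70 for GCN4 and 2.59 ± 0.332 for MBF1 without MMS, against 70.0 ± 5.68, 971 ± 32.0 and 281 ± 19.3 in wild type. Of the MATa markers STE2, MFA1, MFA2, BAR1 and STE6, all 5 were present in every library, with a summed level of 1340.0 to 2680.0 unscaled CPM. Of the 4 MATalpha markers the defining pheromone gene MFALPHA1 stayed between 0.0688 and 0.648, while the summed level, most of it SAG1, was 35.9 to 45.6 without MMS and 122 to 159 with it. MET15 and URA3 were listed at 0 throughout and LEU2 at no more than 1.4 CPM, while HIS3, the fourth gene mutated in BY4741, was at 39.9 to 186. In RNA from whole cultures, a lower level in every cell and a loss from some of the cells cannot be told apart.

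The region upstream of most of the members searched carries letters that regulators of this pathway are known to bind, and those stretches are shown first because the members differ in them. Gcn4 binds TGACTCA, its core TGACTC is shared with sites of Bas1, a regulator of purine, glycine cleavage and SHM2 genes, and the glycine response element described for the GCV genes is CATC, 7 bases of any kind and CTTCTT. Each motif was searched on both strands in the 500 bases before the start codon. The core TGACTC lies inside TGACTCA and CTTCTT inside the long element, so those matches are nested. The windows are from the NCBI RefSeq R64 assembly, read along the gene's own strand, with capitals at the Gcn4 and Bas1 letters (on either strand) and at the fixed letters of the glycine response element.
SER33, chrIX:222621-222660, minus strand: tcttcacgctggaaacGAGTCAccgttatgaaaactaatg
SER1, chrXV:679157-679196, plus strand: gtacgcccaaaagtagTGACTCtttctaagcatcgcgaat
SER2, chrVII:911713-911752, plus strand: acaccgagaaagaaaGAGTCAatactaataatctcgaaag
GCV1, chrIV:485496-485565, minus strand: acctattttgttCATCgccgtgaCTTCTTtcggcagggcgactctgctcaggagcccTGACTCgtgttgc
GCV2, chrXIII:637190-637279, plus strand: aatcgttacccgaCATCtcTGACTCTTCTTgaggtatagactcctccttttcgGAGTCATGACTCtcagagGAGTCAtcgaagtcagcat
GCV3, chrI:58548-58587, minus strand: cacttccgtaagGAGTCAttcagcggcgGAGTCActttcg
THR4 distal, chrIII:216272-216301, plus strand: agagaaacgcTGACTCActacttatggtct
THR4 proximal, chrIII:216502-216541, plus strand: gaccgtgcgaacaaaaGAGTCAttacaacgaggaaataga

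The core TGACTC stood upstream of 7 of the 9 members searched, SHM2 being left out, against 12.9% of 5888 promoters. GCV2 had 4 matches, GCV3 and THR4 had 2, and SER33, SER1, SER2 and GCV1 had 1. The full TGACTCA was found before THR4 alone, against 4.08% of promoters, and that match, 415 bases before the start, lies in the coding sequence of the neighbour RSC6. The long glycine response element was found before GCV1, from 188 bases before the start, and GCV2, from 297 bases, against 0.374% of promoters. In GCV2 its last part overlaps a TGACTC by 1 base. The short CTTCTT stood before 6 of the 9, against 53.2% of promoters. The SER1 match lies in the coding sequence of FYV12. SER3 had none of the 4 motifs and SHM1 only CTTCTT. A match is a description of letters and not a bound site.

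**Figure D1:**
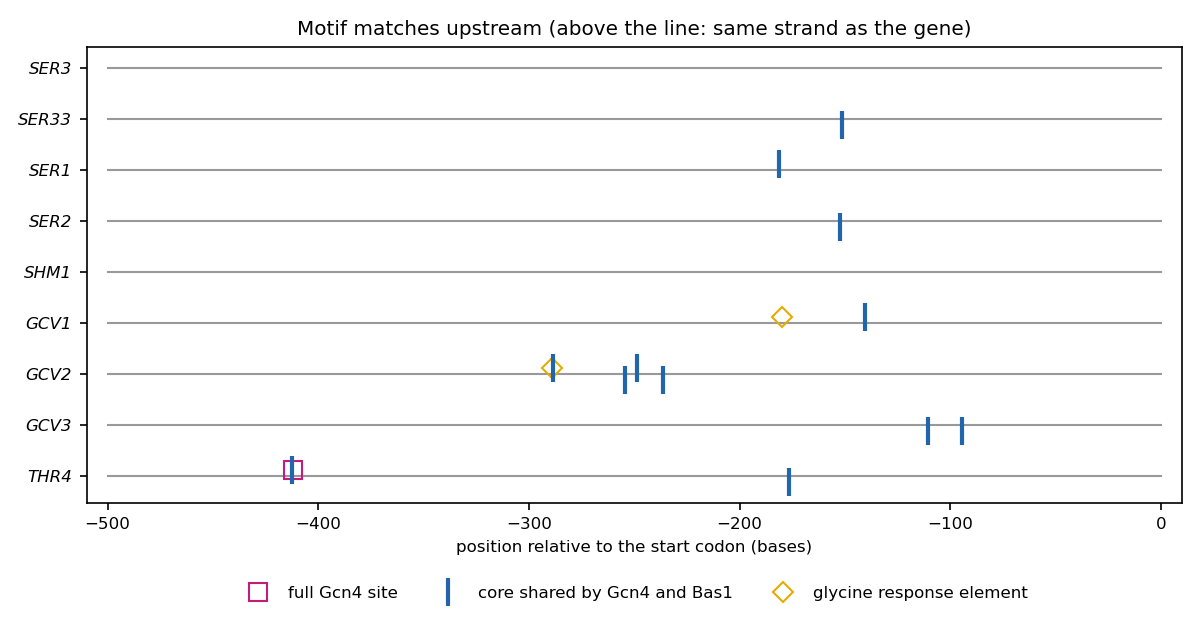
Positions of motif matches in the 500 bases before the start codon of 9 members, with symbols above the line for the gene's own strand and below it for the other strand. GCV2 holds 4 core matches, GCV1 and GCV2 the glycine response element, and SER3 and SHM1 none of the 3 motifs drawn.

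Per length, SHM2 was the most abundant member in untreated wild type cells at 730.1 ± 20.7 TPM (mean ± SD, n = 3). THR4 followed at 279 ± 32.7, and neither overlapped the next gene in the order. SER1 at 209 ± 26.6, SHM1 at 186 ± 19.8 and GCV3 at 171 ± 18.9 overlapped their neighbours. SER2 and SER33, at 79.1 ± 5.61 and 79.0 ± 9.09 TPM, could not be ordered either, nor could GCV1, GCV2 and SER3 at the bottom, with 37.0 ± 5.54, 33.1 ± 3.54 and 30.6 ± 5.86. After MMS the wild type order was led by SER1 at 311 ± 15.8 TPM, THR4, GCV3 and SHM2 overlapped at 258 ± 14.6, 257 ± 12.5 and 233 ± 15.5, and SER2 was lowest at 46.3 ± 4.38. In treated gcn2Δ and mbf1Δ cells GCV3 had the highest mean, at 205 ± 37.9 and 213 ± 20.1 TPM. In treated gcn4Δ cells SHM2 was still the highest, at 275 ± 6.02 TPM, apart from THR4 at 252 ± 5.27. TPM shares a fixed total within a library, and on that scale the median gene rose by 0.55 (log2) with MMS in wild type, so TPM was not used for changes.

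**Figure D2:**
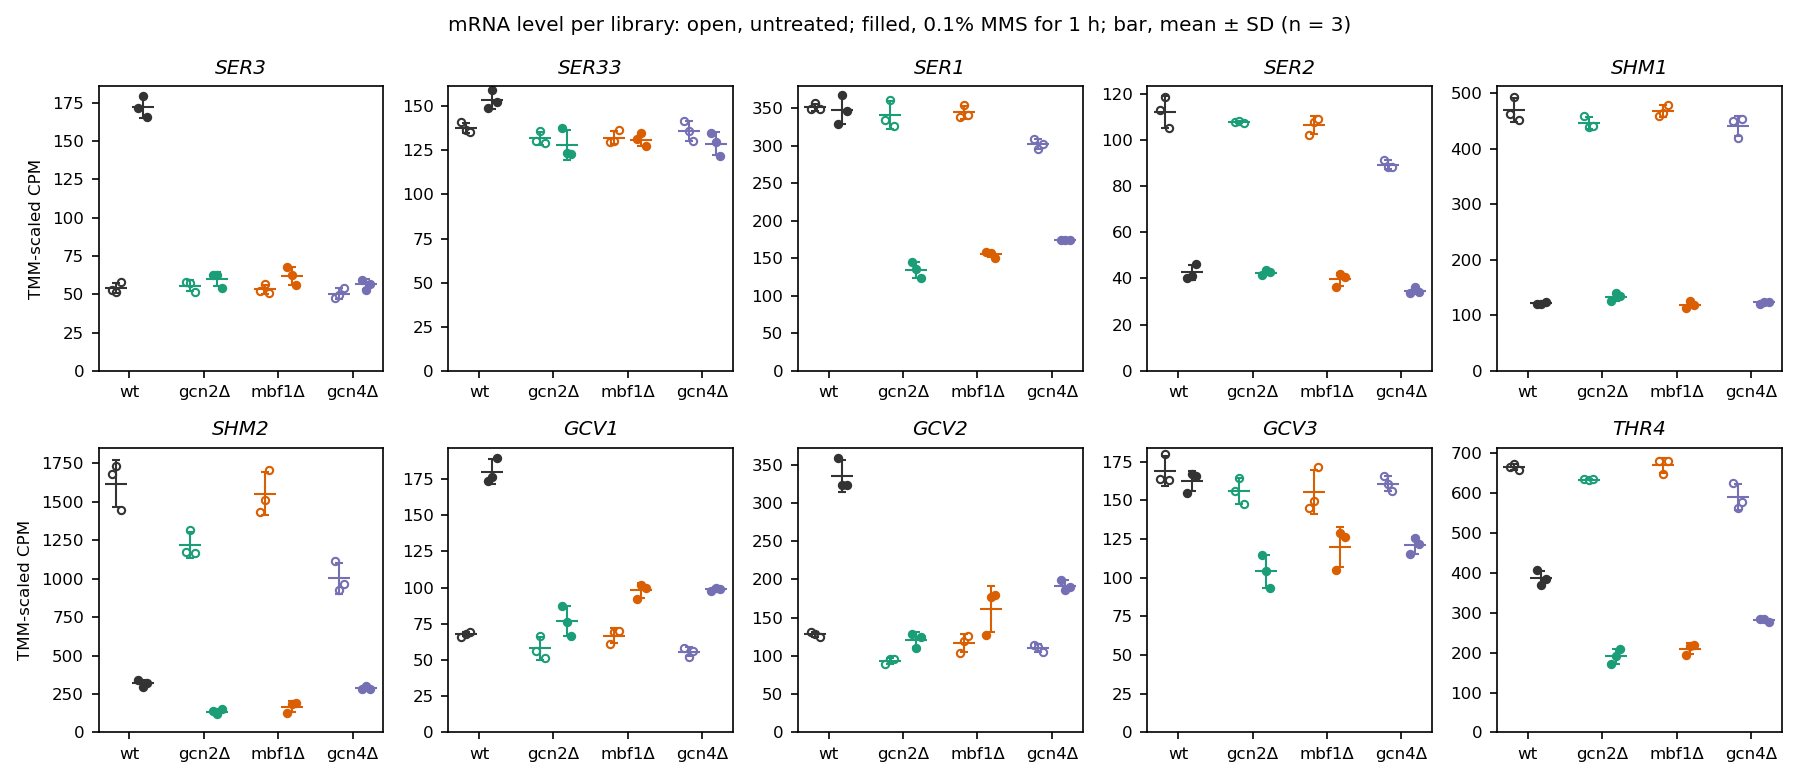
TMM-scaled CPM of each member in all 24 libraries, on linear axes that start at 0; each point is a library and bars give the mean ± SD of 3. The treated wild type libraries stand apart from the treated mutant libraries for SER3, SER1, GCV1, GCV2, GCV3, THR4 and, by less, SER33, while SER2 and SHM1 drop in every strain.

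SER3 (YER081W, chromosome V, 322686 to 324095, plus strand) and SER33 (YIL074C, chromosome IX, 221081 to 222490, minus strand) encode the paralogous 3-phosphoglycerate dehydrogenases, the first step of serine synthesis. In untreated wild type cells SER3 had 53.0, 51.7 and 57.8 CPM, and after MMS 172, 179 and 165. The treated libraries all lay above the untreated ones, a log2 change of 1.67 ± 0.080 (SE; adjusted p = 5.59e-15). Treated SER3 was at 62.6, 62.8 and 54.4 CPM in gcn2Δ, 67.7, 62.9 and 56.0 in mbf1Δ and 59.4, 53.1 and 56.9 in gcn4Δ. None of these 9 libraries reached the lowest treated wild type library. The responses were 0.11 ± 0.078 (SE; adjusted p = 0.192) in gcn2Δ, 0.23 ± 0.079 (adjusted p = 0.011) in mbf1Δ and 0.17 ± 0.077 (adjusted p = 0.0535) in gcn4Δ. The gcn2Δ value was called without gcn2Δ MMS replicate 3 (0.19; adjusted p = 0.0339) and under limma on TPM without rescaling and limma on centred TPM (0.21 to 0.71). The mbf1Δ rise was lost without mbf1Δ NT replicate 3 and mbf1Δ MMS replicate 1 (0.17 to 0.20) and in a fit of the compared groups alone, while the gcn4Δ rise was called under 7 of the 9 alternative settings. Against wild type, the difference of responses was -1.56 ± 0.11 (SE; adjusted p = 2.53e-10) in gcn2Δ, -1.44 ± 0.11 (SE; adjusted p = 1.8e-09) in mbf1Δ and -1.50 ± 0.11 (SE; adjusted p = 4.38e-10) in gcn4Δ.

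SER3 is known to be held down in rich medium by transcription of the noncoding RNA SRG1 across its promoter. SRG1 (chromosome V, 322212 to 322762) had no row of its own in the files used here. The deposited length of SER3 is the coding length plus 400 bases, and if those are taken as 200 bases on each side this gene model shares 277 bases with SRG1, 77 of them coding. Counts of SER3 may therefore include SRG1 reads, and how many was not tested. On the same model SER3 shares 224 bases with UTP7 on the opposite strand, 24 of them coding, and UTP7 changed by -2.45 in wild type.

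SER33 was nearly flat. It had 141, 137 and 135 CPM in untreated and 149, 159 and 152 in treated wild type cells, a change of 0.16 ± 0.056 (SE; adjusted p = 0.012). The groups did not overlap, but the call was lost without wt MMS replicate 2 (0.13; adjusted p = 0.0587). In the mutants the change was between -0.079 and -0.011 and was not called. Treated mutant libraries all lay below the treated wild type ones, with means of 128 CPM in gcn2Δ, 131 in mbf1Δ and 129 in gcn4Δ against 154. The difference from wild type was called in gcn4Δ, at -0.24 ± 0.078 (SE; adjusted p = 0.0216), and missed the threshold in gcn2Δ, at -0.20 (adjusted p = 0.0501), and mbf1Δ, at -0.17 (adjusted p = 0.124). The gcn4Δ call was lost under RLE scaling, limma on TPM without rescaling, a fit of the compared groups alone and the ribosomal RNA genes left out, and without any of wt MMS replicate 2, gcn4Δ NT replicate 1 and gcn4Δ MMS replicates 2 and 3 (-0.21 to -0.15). The gcn2Δ difference was called under no filter on low counts, the replicate block and effective-length offsets, and without either of wt MMS replicate 1 and gcn2Δ MMS replicate 1 (-0.23 to -0.22).

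SER1 (YOR184W, chromosome XV, 679357 to 680544, plus strand) encodes phosphoserine aminotransferase, the next step. Its level in wild type was 348, 356 and 349 CPM without MMS and 329, 367 and 346 with it. These libraries overlapped, with a change of -0.015 and an interval of 2 SE either side of -0.13 to 0.10. Treated gcn2Δ libraries held 145, 135 and 123 CPM, mbf1Δ 159, 158 and 150.4 and gcn4Δ 174, 175 and 174. All 9 were below every untreated library of their own strain and below every treated wild type library. SER1 thus fell in the mutants, with log2 changes of -1.34 ± 0.060 in gcn2Δ, -1.15 ± 0.060 in mbf1Δ and -0.79 ± 0.059 in gcn4Δ (SE). Relative to wild type the responses differed by -1.32 ± 0.084 (SE; adjusted p = 3.14e-11), -1.13 ± 0.084 (SE; adjusted p = 7.64e-10) and -0.78 ± 0.083 (SE; adjusted p = 1.3e-07) in the same order.

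SER2 (YGR208W, chromosome VII, 911883 to 912812, plus strand) encodes phosphoserine phosphatase, the last step. It went from 113, 119 and 105 CPM to 40.3, 41.3 and 46.4 in wild type, with no overlap, a change of -1.39 ± 0.064 (SE; adjusted p = 2.84e-15). The responses in gcn2Δ, mbf1Δ and gcn4Δ were -1.34, -1.43 and -1.36, all called. Relative to wild type the responses differed by 0.052, -0.034 and 0.029, with intervals of 2 SE either side of -0.12 to 0.23, -0.21 to 0.15 and -0.15 to 0.21. SER2 shares 300 bases of its gene model with TRX2 on the opposite strand, 100 of them coding, and TRX2, a thioredoxin gene, rose by 2.39 in wild type. No strand setting of the counting is given in the sources used here, so reads in that stretch cannot be assigned.

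SHM1 (YBR263W, chromosome II, 736264 to 737736, plus strand) encodes the mitochondrial and SHM2 (YLR058C, chromosome XII, 257992 to 259401, minus strand) the cytosolic serine hydroxymethyltransferase. SHM1 fell from 462, 493 and 451 CPM to 121, 119.9 and 124 in wild type, a change of -1.95 ± 0.058 (SE; adjusted p = 8.31e-19). Treated mutant libraries ran from 114 to 140.5 CPM, and those of mbf1Δ and gcn4Δ overlapped wild type. The differences of response were 0.20 ± 0.079 (SE) in gcn2Δ, with an adjusted p of 0.0526, -0.022 ± 0.080 in mbf1Δ and 0.10 ± 0.079 in gcn4Δ. The gcn2Δ value was called, as a shallower fall, under DESeq2, RLE scaling, limma on centred TPM, the ribosomal RNA genes left out and effective-length offsets, and without any of wt NT replicate 3 and gcn2Δ MMS replicates 1 and 3 (0.23 to 0.27).

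SHM2 had the largest log2 change of the 10 in wild type. It went from 1681, 1730.3 and 1445 CPM to 341, 297 and 323, a change of -2.34 ± 0.13 (SE; adjusted p = 1e-13). Treated gcn2Δ libraries had 138, 117 and 149 CPM and treated mbf1Δ libraries 127, 185 and 193, all below the treated wild type. In gcn4Δ the level went from 1118, 927 and 964 to 283, 304 and 279 CPM, and its treated libraries overlapped the treated wild type. The untreated gcn4Δ level was lower than in wild type, a difference of -0.69 ± 0.12 (SE; adjusted p = 0.000678), and enters its smaller change of -1.80 ± 0.13. The differences from the wild type response were -0.84 ± 0.18 (SE; adjusted p = 0.000673) in gcn2Δ, -0.87 ± 0.18 (SE; adjusted p = 0.000929) in mbf1Δ and 0.54 ± 0.18 (SE; adjusted p = 0.0205) in gcn4Δ. The gcn4Δ call was lost without any of wt NT replicate 2, wt MMS replicate 2 and gcn4Δ NT replicate 2 (0.49 to 0.49; adjusted p = 0.0528 to 0.0589). The lowest mbf1Δ library, replicate 1, also had a ribosomal RNA share of 8.85% against 17.3% and 17.7% in the other two, and the part of that share was not tested; without it the mbf1Δ difference was -0.69 and still called.

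**Figure D3:**
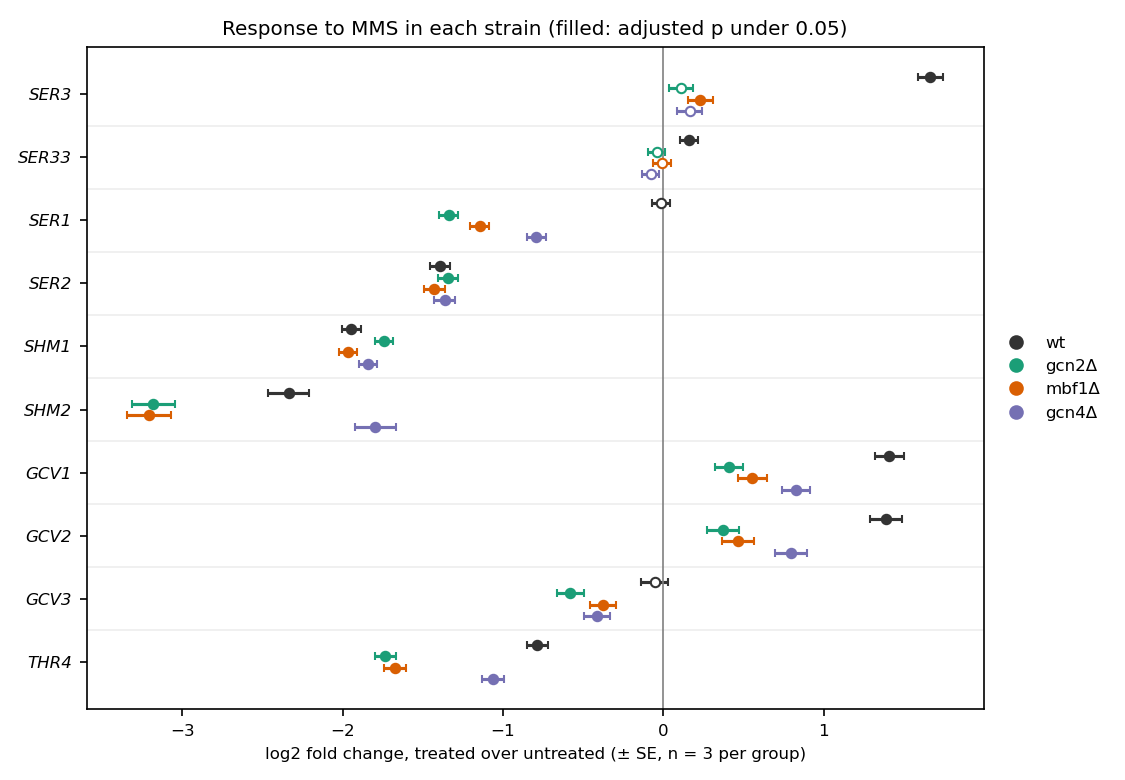
Log2 fold change of each member from untreated to MMS-treated cells in the 4 strains, with bars of 1 SE (n = 3 libraries a group); filled points have an adjusted p under 0.05. Wild type lies to the right of the mutants for SER3, SER1, GCV1, GCV2, GCV3, THR4 and, by less, SER33, and the 4 strains lie together for SER2.

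The glycine cleavage complex decarboxylates glycine in mitochondria. Its T subunit is encoded by GCV1 (YDR019C, chromosome IV, 484163 to 485365, minus strand), its P subunit by GCV2 (YMR189W, chromosome XIII, 637500 to 640604, plus strand) and its H subunit by GCV3 (YAL044C, chromosome I, 57950 to 58462, minus strand). GCV1 rose in wild type from 66.1, 68.2 and 69.0 CPM to 174, 176 and 189.8, by 1.41 ± 0.090 (SE; adjusted p = 1.34e-12). GCV2 rose from 131, 129 and 125 to 359, 323 and 323, by 1.39 ± 0.10 (SE; adjusted p = 1.35e-11). For both genes the treated libraries were all above the untreated ones. GCV3 had 163, 179.8 and 163 CPM without and 155, 167 and 166 with MMS, overlapping groups, with a change of -0.055 and an interval of -0.22 to 0.11. The ratio of GCV3 to GCV1 in TPM accordingly went from 4.63 ± 0.240 to 1.69 ± 0.0959 (mean ± SD, n = 3) in wild type, while that of GCV1 to GCV2 was 1.12 ± 0.0490 and 1.16 ± 0.111.

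In the mutants GCV1 and GCV2 still rose with MMS, but less. GCV1 reached 87.4, 76.6 and 66.8 CPM in treated gcn2Δ, 92.1, 102 and 100.1 in mbf1Δ and 97.4, 100 and 99.3 in gcn4Δ cells. GCV2 reached 129, 109.7 and 125, 127, 178 and 179.8 and 199, 186 and 190.4 CPM. For neither gene did a treated mutant library overlap the treated wild type libraries. The differences of the GCV1 response were -0.9996 ± 0.13 (SE; adjusted p = 1.66e-06) in gcn2Δ, -0.85 ± 0.13 (SE; adjusted p = 2.92e-05) in mbf1Δ and -0.58 ± 0.13 (SE; adjusted p = 0.000937) in gcn4Δ. Those of GCV2 were -1.02 ± 0.14 (SE; adjusted p = 6.14e-06), -0.92 ± 0.14 (SE; adjusted p = 4.41e-05) and -0.59 ± 0.14 (SE; adjusted p = 0.00221). GCV3 fell in each mutant, with log2 changes of -0.58, -0.38 and -0.41 in the same order, and its treated mutant libraries lay below the treated wild type. Its differences from wild type were -0.53 ± 0.12 (SE; adjusted p = 0.00117), -0.32 ± 0.12 (SE; adjusted p = 0.0491) and -0.36 ± 0.12 (SE; adjusted p = 0.0208).

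The GCV3 difference in mbf1Δ sat at the threshold. It was lost under RLE scaling, no filter on low counts, limma on TPM without rescaling, a fit of the compared groups alone, the replicate block and the ribosomal RNA genes left out (-0.32 to -0.26), and without any of wt NT replicates 1 and 3, wt MMS replicates 2 and 3, mbf1Δ NT replicates 2 and 3 and mbf1Δ MMS replicate 1 (-0.35 to -0.22; adjusted p = 0.0521 to 0.152). The gcn4Δ difference was lost without any of wt NT replicate 1, wt MMS replicate 2 and gcn4Δ MMS replicates 1 and 3 (-0.34 to -0.28). GCV3 is short, and 51.4% of its gene model lies in the models of BOL1, on the opposite strand, and PTA1, on the same one. In wild type BOL1 changed by -0.068 (not called) and PTA1 by 0.85 (called), and their part in the GCV3 counts was not tested.

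THR4 (YCR053W, chromosome III, 216697 to 218241, plus strand) encodes threonine synthase, the last enzyme of threonine synthesis. In wild type it had 667, 673 and 659 CPM without and 406, 369 and 385 with MMS, a change of -0.79 ± 0.067 (SE; adjusted p = 2.31e-10) with no overlap. Treated levels were 172, 192 and 208 CPM in gcn2Δ, 194, 216 and 220.0 in mbf1Δ and 286, 285 and 277 in gcn4Δ, all below the treated wild type. THR4 thus fell further in gcn2Δ, with a difference of -0.95 ± 0.094 (SE; adjusted p = 5.78e-08), and in mbf1Δ, with -0.89 ± 0.094 (SE; adjusted p = 2.6e-07). The gcn4Δ difference was smaller, -0.28 ± 0.094 (SE; adjusted p = 0.0259), and was lost under RLE scaling, limma on TPM without rescaling and the ribosomal RNA genes left out (-0.31 to -0.23) and without any of wt MMS replicate 1, gcn4Δ NT replicate 1 and gcn4Δ MMS replicates 1, 2 and 3 (-0.24 to -0.21).

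Counted over the members, MMS changed 8 of 10 in wild type (4 higher, 4 lower), against 83.1% (42% higher, 41.2% lower) of all 5821 genes counted. In gcn2Δ it changed 8 of 10 (2 higher, 6 lower), against 81.7% (41.4% higher, 40.4% lower). In mbf1Δ it changed 9 of 10 (3 higher, 6 lower), against 82.9% (42.8% higher, 40.1% lower). In gcn4Δ it changed 8 of 10 (2 higher, 6 lower), against 83.3% (40.7% higher, 42.6% lower). These shares are near the background, since most yeast genes moved. The median log2 response of the members was -0.035, against 0.025 over all 5821 genes, in wild type. It was -0.96, against 0.027 over all 5821 genes, in gcn2Δ, -0.76 against 0.048 in mbf1Δ and -0.60 against -0.019 in gcn4Δ.

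The response differed from wild type in 7 of 10 members in gcn2Δ, all lower, against 35.9% of all genes called and 17.3% called lower. In mbf1Δ it differed in 7, all lower, against 24% called and 12.4% called lower. In gcn4Δ it differed in 8, 7 lower and SHM2 higher, against 35.2% called, 16.4% lower and 18.8% higher. The gcn4Δ count fell to 5 without wt MMS replicate 2 or without gcn4Δ MMS replicate 3. The median difference of the members was -0.90, against 0.035 over all 5821 genes, in gcn2Δ, -0.86 against 0.018 in mbf1Δ and -0.32 against -0.012 in gcn4Δ. The 3 differences share the wild type libraries, so their likeness is not independent.

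**Figure D4:**
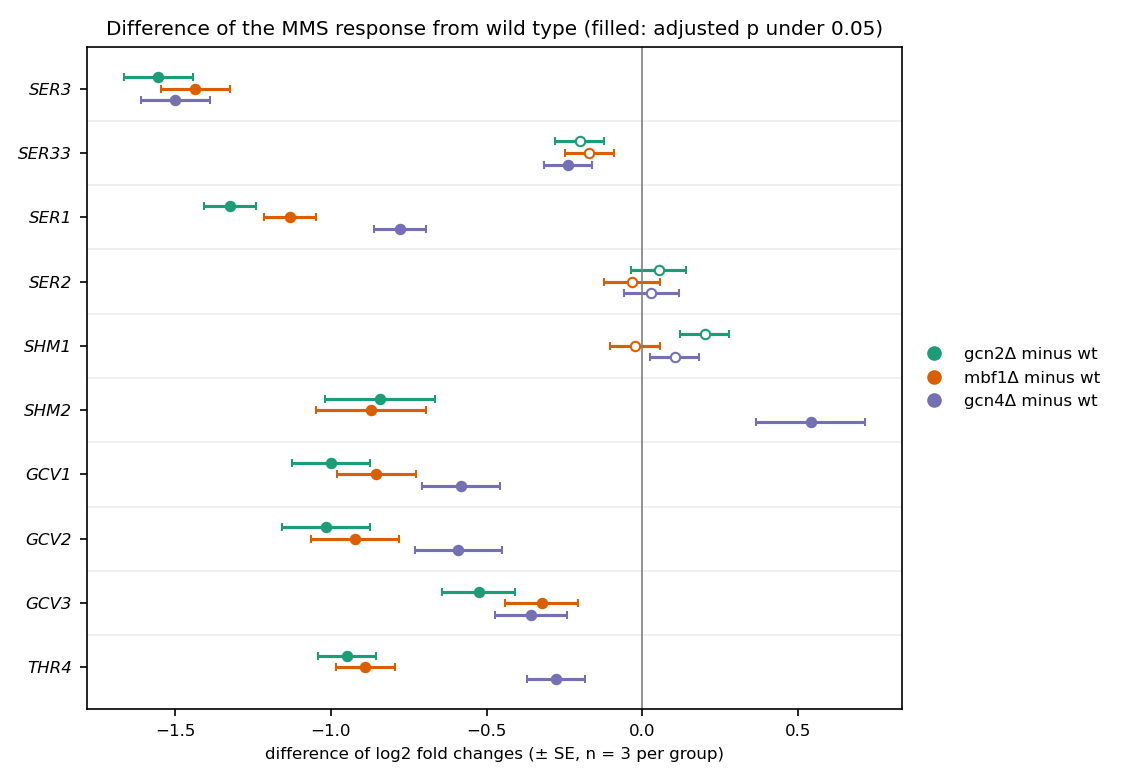
Difference of the log2 MMS response between each deletion strain and wild type for the 10 members, with bars of 1 SE (n = 3 libraries a group); filled points have an adjusted p under 0.05. SER3 lies near -1.5 in all 3 mutants, SER1 and THR4 are least negative in gcn4Δ, and SHM2 is the one member that is positive and called, in gcn4Δ.

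Set against each other, the responses in mbf1Δ and gcn2Δ differed in 0 of 10 members at an adjusted p under 0.05 in edgeR, against 6.73% of all genes. At an unadjusted p under 0.05, 2 did, and DESeq2 called 1, SHM1. For SER3 the mbf1Δ response was higher by 0.12 ± 0.11 (SE), for SHM2 the difference was -0.027 ± 0.18, and for GCV1 it was 0.15 ± 0.13, none of them called. The mbf1Δ response was lower than that of gcn4Δ in 3 members, against 43.8% of all genes called and 22.8% called lower. They were SHM2, at -1.41 ± 0.18 (SE; adjusted p = 2.12e-06), THR4, at -0.61 ± 0.094 (SE; adjusted p = 2.65e-05), and SER1, at -0.35 ± 0.083 (SE; adjusted p = 0.002). The gcn2Δ response was lower than that of gcn4Δ in 5 members, against 32.7% called and 18.3% called lower. They were SHM2, at -1.38 ± 0.18 (SE; adjusted p = 7.58e-06), THR4, at -0.67, SER1, at -0.55, GCV2, at -0.43, and GCV1, at -0.42. GCV1 lost the call without gcn2Δ NT replicate 2 (-0.31), and GCV2 without any of gcn2Δ NT replicate 2, gcn2Δ MMS replicate 2 and gcn4Δ NT replicate 3 (-0.41 to -0.38). The count against gcn4Δ was 5 for mbf1Δ without mbf1Δ NT replicate 1, and 3 for gcn2Δ without gcn2Δ NT replicate 2.

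Without MMS, edgeR called 1 member in gcn2Δ and none in mbf1Δ. GCV2 was lower in gcn2Δ, with 89.1, 96.4 and 95.7 CPM against 131, 129 and 125, a difference of -0.45 ± 0.10 (SE; adjusted p = 0.0477). That is 1 of 10 members against 0.429% of all genes called and 0.309% called lower, and the call was lost without any of wt NT replicates 1 and 2 and gcn2Δ NT replicates 1, 2 and 3 (-0.47 to -0.41). The count of all genes called there, 25, was itself unstable, at 392 with DESeq2, 1156 without wt NT replicate 3 and 7 without wt NT replicate 1 or gcn2Δ NT replicate 1. SHM2 was not called in untreated gcn2Δ, at -0.41 ± 0.12 (SE; adjusted p = 0.098), but all its libraries lay below wild type, and it was called with DESeq2 (-0.43; adjusted p = 0.023) and without wt NT replicate 3 (-0.48; adjusted p = 0.0207). In mbf1Δ edgeR called 0 of 10, DESeq2 also called 0, and 0 had an unadjusted p under 0.05, against 0.155% of all genes called. In gcn4Δ 4 of 10 were lower, against 19.3% of all genes called and 10.1% called lower. They were SHM2, at -0.69 ± 0.12 (SE; adjusted p = 0.000678), SER2, at -0.33 ± 0.062 (SE; adjusted p = 0.000895), GCV1, at -0.28 ± 0.091 (SE; adjusted p = 0.0352), and SER1, at -0.22 ± 0.059 (SE; adjusted p = 0.0135). The SER1 call was lost without wt NT replicate 2 and gcn4Δ NT replicate 2 (-0.21 to -0.20) and the GCV1 call without any of wt NT replicates 1, 2 and 3 and gcn4Δ NT replicates 2 and 3 (-0.30 to -0.24) and with effective-length offsets. Leaving out wt NT replicate 2 or gcn4Δ NT replicate 2 left 2 calls. These directions are relative to the bulk of genes: on TPM without rescaling the median gene was 0.42 higher in untreated gcn4Δ, and SER1, SER2 and GCV1 turned to 0.24, 0.12 and 0.18.

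The paralog pairs shifted in balance in different strains. SER3 made up 26.9%, 27.1% and 29.5% of the summed SER3 and SER33 TPM in the untreated wild type libraries and 53.5%, 52.9% and 52.0% in the treated ones. The mean share thus went from 27.8% ± 1.46 to 52.8% ± 0.741 (SD, n = 3) without overlap. In the mutants it went from 29.3% ± 1.16 to 31.8% ± 1.63 in gcn2Δ, from 28.3% ± 1.55 to 32.0% ± 1.82 in mbf1Δ and from 26.8% ± 2.20 to 30.5% ± 1.43 in gcn4Δ. The treated and untreated libraries were also separate, by a smaller margin, in gcn2Δ and mbf1Δ, and overlapped in gcn4Δ. SHM1 made up 19.3%, 19.8% and 21.7% of the summed SHM1 and SHM2 TPM in untreated and 23.5%, 25.8% and 25.05% in treated wild type libraries. In gcn2Δ the SHM1 share went from 24.5% ± 1.53 to 46.4% ± 4.14, in mbf1Δ from 21.0% ± 1.13 to 38.5% ± 4.98 and in gcn4Δ from 28.3% ± 1.60 to 27.4% ± 0.709. For this share the treated and untreated libraries were separate in wild type, gcn2Δ and mbf1Δ and overlapped in gcn4Δ. By a two-sided exact permutation test on the log2 ratio, n = 3 against 3, p was 0.1 in 6 of the 8 comparisons, the smallest this design allows, 0.2 for SER3 in gcn4Δ and 0.5 for SHM1 in gcn4Δ. Adjusted over the 8 comparisons, these exact p-values ran from 0.133 to 0.5, so this design could not pass 0.05.

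The coding sequences of SER3 and SER33 are 82.7% identical, with a longest identical run of 56 bases, and blastn aligned 69.2% of the SER3 model to SER33 at 85.6% identity. Read pairs of 150 bases can mostly be placed on such sequences, but some counts could be split between the pair. SHM1 and SHM2 are 63.3% identical with a longest run of 22 bases. No other member had a copy found by blastn.

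**Figure D5:**
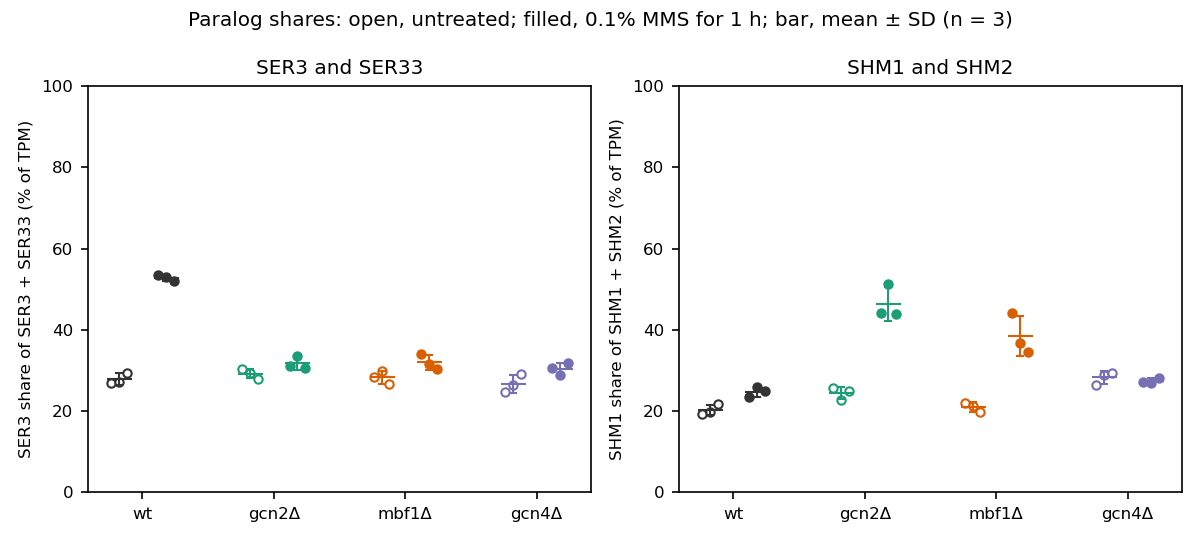
Share of SER3 in SER3 plus SER33 (left) and of SHM1 in SHM1 plus SHM2 (right), in percent of TPM, for every library with the mean ± SD of 3. The SER3 share is above 50% in the treated wild type libraries alone, and the SHM1 share is above 30% in treated gcn2Δ and mbf1Δ libraries alone.

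Of 9 other genes of serine, glycine and threonine metabolism, MMS changed 7 in wild type (3 higher and 4 lower), against 83.1% of all genes, with a median log2 change of -0.049. The response differed from wild type in 7 of them in gcn2Δ (1 higher and 6 lower), 6 in mbf1Δ (all lower) and 4 in gcn4Δ (1 higher and 3 lower), against 35.9%, 24% and 35.2% of all genes, with medians of -0.63, -0.75 and -0.25. The enzymes upstream of THR4 did not move alike. HOM3, aspartate kinase, rose from 264 ± 36.8 CPM (SD, n = 3) to 794 ± 52.3 in wild type and fell to 73.1 ± 13.5 in gcn2Δ, differences of response of -3.05 ± 0.19 (SE), -2.02 ± 0.18 and -2.15 ± 0.18 in gcn2Δ, mbf1Δ and gcn4Δ. HOM2, the next enzyme, gave -2.67, -1.68 and -2.39. HOM6, homoserine dehydrogenase, which follows HOM2 and is named after its values were seen, was at 801 ± 160.3 CPM without and 808 ± 37.4 with MMS in wild type. Its response was called in gcn4Δ alone of the 4 strains (0.52), and its differences from wild type, -0.10, -0.30 and 0.51, were not called. THR1, homoserine kinase, whose product THR4 uses, resembled THR4 in wild type, with -0.93, and differed in gcn2Δ by -0.82 and mbf1Δ by -1.06. In gcn4Δ its difference was 0.34 (adjusted p = 0.234).

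Both deaminase genes in that list fell. CHA1, the catabolic serine and threonine deaminase, fell in wild type, by a log2 change of -1.85, and less in gcn2Δ and gcn4Δ, with differences of 0.56 and 0.53. ILV1, the biosynthetic threonine deaminase of the isoleucine pathway, fell (-0.99) and did so further in gcn2Δ (-1.13) and mbf1Δ (-1.12). AGX1, which makes glycine from glyoxylate, rose by 2.27 in wild type, with no called difference in any mutant.

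Of 15 genes of folate metabolism and the methyl cycle, MMS changed 14 in wild type (3 higher and 11 lower), against 83.1% of all genes called and 41.2% called lower, with a median of -0.85. The response differed in gcn2Δ in 8 (3 higher and 5 lower), in mbf1Δ in 8 (2 higher and 6 lower) and in gcn4Δ in 6 (4 higher and 2 lower), against 35.9%, 24% and 35.2% of all genes. In wild type, SAM1 and SAM2, the S-adenosylmethionine synthetases, changed by -4.30 and -2.33 on the log2 scale, SAH1, S-adenosylhomocysteine hydrolase, by -3.18, and MIS1, the mitochondrial tetrahydrofolate synthase, by -3.86. MTD1, a cytosolic methylenetetrahydrofolate dehydrogenase, changed by -1.51 and FOL1, of folate synthesis, by -1.54. MET6, methionine synthase, fell (-1.79) and did so further in each mutant, with differences of -1.60, -1.38 and -1.09 in gcn2Δ, mbf1Δ and gcn4Δ. FOL2, the first enzyme of folate synthesis, rose by 0.74 in wild type and differed by -1.07, -0.70 and -0.92. In gcn4Δ the fall was shallower than in wild type for SAM1 (1.16), MIS1 (1.097) and SAH1 (0.74), the direction SHM2 took there.

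Among 5 regulators besides GCN4, MMS changed all 5 in wild type (2 higher and 3 lower), against 83.1% of all genes. BAS1 had 59.3 ± 8.10 CPM (SD, n = 3) without and 22.6 ± 0.473 with MMS, a change of -1.39 ± 0.099 (SE). It fell further in gcn2Δ, mbf1Δ and gcn4Δ, to 13.1 ± 1.06, 14.7 ± 1.96 and 13.4 ± 0.521 CPM, with differences of -0.95 ± 0.14, -0.53 ± 0.14 and -1.02 ± 0.14. PHO2, the partner of Bas1, rose by 1.19 in wild type without a called difference in the mutants. GCN4 mRNA went from 971 ± 32.0 to 568 ± 12.3 CPM in wild type, from 1023 ± 18.7 to 352 ± 31.1 in gcn2Δ and from 1036 ± 56.8 to 349 ± 20.6 in mbf1Δ.

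The gene most like each member over the 8 group means of log2 CPM was found by Pearson's r among all other tested genes, as a description with no test. It was SNZ1 for SER3 (r = 0.985), which had 16.4 ± 2.03 CPM in untreated and 161 ± 5.06 in treated wild type cells and 17.1 ± 0.579 in treated gcn2Δ. ARO4, a gene of aromatic amino acid synthesis, was nearest to both SER1 (0.991) and GCV3 (0.989). For GCV1 it was MCH1 (0.9904), for GCV2 URE2 (0.989) and for SER33 GGC1 (0.971). For THR4 it was DED81 (0.998), for SHM2 MIN7 (0.997), for SER2 HXT3 (0.997) and for SHM1 HGH1 (0.999). The patterns of SHM1 and SER2 were common: 227 and 40 genes had an r above 0.99 with them, against 0 for SER3, GCV2, GCV3 and SER33.

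The authors' deposited table for gcn2Δ called 9 of the 10 members at an adjusted p under 0.05, their table for mbf1Δ 7 and their table for gcn4Δ 8. In the authors' deposited tables SER3 had -1.51 ± 0.12 (log2, their error), -1.43 ± 0.12 and -1.45 ± 0.12 for gcn2Δ, mbf1Δ and gcn4Δ. SHM2 in the authors' deposited tables had -0.72 ± 0.18, -0.76 ± 0.20 and 0.39 ± 0.18. Those tables were compared with the differences of response from wild type, not with the response of each strain. Every member called in the authors' deposited tables had the sign found here, and the values differed by at most 0.127, 0.11 and 0.154 in gcn2Δ, mbf1Δ and gcn4Δ. The 2 calls that the authors' deposited table for gcn2Δ made in addition were SER33, at -0.18 ± 0.077, and SHM1, at 0.20 ± 0.067.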

How the data were processed

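Per the submitters' processing notes, reads were handled with FastQC 0.11.9, fastp, Salmon 1.10.1 and DESeq2 1.38.3 on the R64 build. The deposited files give an estimated count per gene and TPM, both by Salmon, with lengths in bases. The authors' deposited comparison tables give a normalized mean that is used here as a score only, log2 fold changes with errors on that scale, and p-values, per the file headers.

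Estimated counts of 5912 genes were rounded and fitted (edgeR 4.0.16, R 4.3.3) with TMM scaling, filterByExpr at a minimum count of 10 (5824 genes) and a coefficient for each of the 8 groups over 24 libraries (16 residual degrees of freedom, biological coefficient of variation 8.49%). edgeR's quasi-likelihood test with Benjamini-Hochberg adjustment gave 13 contrasts; GCN2, GCN4 and MBF1 were left out of gene counts, which leaves 5821. SE is the log2 fold change divided by the root of the F statistic. The script was tested on simulated data. Precision is limited by 3 libraries a group; counting error is small at these depths.

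Alternatives were DESeq2 1.42.0, RLE scaling, no filter, limma 3.58.1 on log2(TPM + 1), a fit of the compared groups alone, a replicate block, the 5 ribosomal RNA rows left out and each library left out. Limma on TPM centred on each library's median gene and edgeR with Salmon's effective lengths as offsets were added after seeing the data. Paralog ratios were compared by exact permutation (scipy 1.17.1). Sequences came from NCBI RefSeq R64 and copies from blastn 2.17.0. Members, lists, motifs and tests were chosen with earlier results of these data known. Named beside the members are the deleted genes, list genes with an adjusted p under 0.05 and at least a 2-fold change in the wild type response or an interaction, and the gene nearest to each member. The upstream sequence of SHM2 is not reported here. Neighbours that share a gene model or hold a motif match are named for that position.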

Additional observations from a re-analysis of the deposited data

Results flagged for a closer look

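A result is given here where the MMS response differed between 2 strains at an adjusted p under 0.05 in edgeR's test of that difference. All values are differences of log2 responses. Groups of 3 libraries are too small for a search for outlying libraries, and none was made. Replicates were not equally close, by chi-square per degree of freedom over genes against counting noise, which ran from 4.33 to 194.4. Treated mbf1Δ replicate 1 gave 184.6 and 194.4 against the others, which gave 4.89 between them. Untreated wild type replicate 3 gave 93.7 against each of the others, which gave 7.26. The cause was not tested. The differences from wild type share the wild type libraries.

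Among the members, the gcn2Δ response minus the wild type response was -1.56 for SER3, -1.32 for SER1, -0.84 for SHM2, -0.9996 for GCV1, -1.02 for GCV2, -0.53 for GCV3 and -0.95 for THR4. In mbf1Δ the same difference was -1.44 for SER3, -1.13 for SER1, -0.87 for SHM2, -0.85 for GCV1, -0.92 for GCV2, -0.32 for GCV3 and -0.89 for THR4. In gcn4Δ it was -1.50 for SER3, -0.24 for SER33, -0.78 for SER1, 0.54 for SHM2, -0.58 for GCV1, -0.59 for GCV2, -0.36 for GCV3 and -0.28 for THR4. SHM2 in gcn4Δ was the only positive value of these 22. Between mutants, the mbf1Δ response minus that of gcn4Δ was -0.35 for SER1, -1.41 for SHM2 and -0.61 for THR4, and the gcn2Δ response minus that of gcn4Δ was -0.55 for SER1, -1.38 for SHM2, -0.42 for GCV1, -0.43 for GCV2 and -0.67 for THR4.

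Among the named genes of the pathway lists and regulators, the gcn2Δ difference from wild type was 0.51 for FOL1, -1.07 for FOL2, -1.60 for MET6, 0.71 for MIS1, -0.54 for MTD1, -0.95 for BAS1, 0.56 for CHA1, -2.67 for HOM2, -3.05 for HOM3, -1.13 for ILV1 and -0.82 for THR1. The mbf1Δ difference was 0.46 for FOL1, -0.70 for FOL2, -1.38 for MET6, 0.35 for MIS1, -0.47 for MTD1, -0.53 for BAS1, -1.68 for HOM2, -2.02 for HOM3, -1.12 for ILV1 and -1.06 for THR1. The gcn4Δ difference was 0.26 for FOL1, -0.92 for FOL2, -1.09 for MET6, 1.097 for MIS1, 0.74 for SAH1, 1.16 for SAM1, -1.02 for BAS1, 0.53 for CHA1, -2.39 for HOM2 and -2.15 for HOM3.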

How the results depend on the processing

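The 130 member values (10 members in 13 contrasts) were recomputed under 9 settings. Direction was compared only for values called in the reported or the alternative fit. Direction and call were as reported for 123 with DESeq2, 124 with RLE scaling, 128 with no filter, 124 in fits of the compared groups alone, 124 without the ribosomal RNA genes, 125 with effective-length offsets, 124 on centred TPM and 101 on TPM without rescaling. Among the values so compared the sign turned for 19, all on TPM without rescaling, where the median gene shifts with MMS by 0.54 to 0.67: in the wild type response to 0.58 for SER1 and 0.59 for GCV3, in the gcn2Δ response to 0.55 for SER33 and 0.075 for GCV3, in the mbf1Δ response to 0.68 for SER33 and 0.33 for GCV3, in the gcn4Δ response to 0.52 for SER33 and 0.18 for GCV3, in untreated gcn2Δ to 0.27 for SER2, 0.25 for SHM1 and 0.25 for THR4, in untreated gcn4Δ to 0.43 for SER33, 0.24 for SER1, 0.12 for SER2, 0.38 for SHM1, 0.18 for GCV1, 0.23 for GCV2, 0.33 for GCV3 and 0.28 for THR4. On centred TPM no value called in either fit turned sign. Values called in neither fit were not counted, and some small ones did turn. Over the settings other than TPM without rescaling, SER1 in the wild type response ran from -0.037 to 0.057. GCV3 there ran from -0.077 to 0.069. In 127 the replicate block changed nothing; with the replicate block SER33 in the gcn2Δ difference was -0.20 and called, GCV3 in the mbf1Δ difference -0.32 and GCV2 in untreated gcn2Δ -0.45 not called, which left 0 in untreated gcn2Δ members. Of 21 correlations of deviations from the group means between libraries of the same number, 5 were above 0.1. They were 0.19 and 0.17 for replicates 2 and 3 of untreated gcn2Δ with wild type. Treated with untreated mbf1Δ gave 0.19 for both replicates 1 and 3, and untreated gcn4Δ with wild type 0.11 for replicate 1. Between libraries of different numbers the correlation reached 0.33, for treated mbf1Δ replicate 2 with an untreated mbf1Δ library. Whether libraries of a number pair was not tested. Members called became 2 in untreated gcn2Δ, 1 in mbf1Δ minus gcn2Δ and 5 in mbf1Δ minus gcn4Δ with DESeq2, 3 in untreated gcn2Δ on TPM without rescaling, 1 in mbf1Δ minus gcn2Δ and 5 in mbf1Δ minus gcn4Δ on centred TPM, and 1 in mbf1Δ minus gcn2Δ with offsets. All genes called became 392 in untreated gcn2Δ and 17 in untreated mbf1Δ with DESeq2, 1296 in the gcn2Δ difference from wild type, 791 in the mbf1Δ difference, 1319 in the gcn4Δ difference, 2863 in untreated gcn2Δ, 14 in untreated mbf1Δ, 4288 in untreated gcn4Δ, 129 in mbf1Δ minus gcn2Δ, 1312 in mbf1Δ minus gcn4Δ and 955 in gcn2Δ minus gcn4Δ on TPM without rescaling, 75 in untreated gcn2Δ on centred TPM, 5 in untreated mbf1Δ and 103 in mbf1Δ minus gcn2Δ with the compared groups alone, and 76 in untreated gcn2Δ with offsets, against 2091, 1395 and 2047 reported for the gcn2Δ, mbf1Δ and gcn4Δ differences from wild type, 25, 9 and 1123 for untreated gcn2Δ, mbf1Δ and gcn4Δ, and 392, 2552 and 1906 between mutants. Leaving out each library in turn gave members called from 5 to 8 in the gcn4Δ difference, 0 to 2 in untreated gcn2Δ, 2 to 5 in untreated gcn4Δ, 0 to 1 in mbf1Δ minus gcn2Δ, 3 to 5 in gcn2Δ minus gcn4Δ and 3 to 5 in mbf1Δ minus gcn4Δ, and all genes called from 7 to 1156 in untreated gcn2Δ, 5 to 8 in untreated mbf1Δ, 517 to 1916 in untreated gcn4Δ and 221 to 479 in mbf1Δ minus gcn2Δ. The cause was not tested. With 3 libraries a group, member differences as large as 0.54 (SHM2 in the gcn4Δ difference) crossed the threshold when 1 library was left out.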
